A study of Mus musculus with 24 samples.

Results

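Genes of Toll-like receptor signalling and lipopolysaccharide (LPS) sensing were followed in the brains of mice given repeated LPS or vehicle, 10 in all: Tlr1, Tlr2, Tlr3, Tlr4, Tlr7, Cd14, Ly96, Myd88, Ticam1 and Irak3. They were chosen by name, with earlier results of these data known. All were found by symbol among the 55421 gene identifiers of the deposited count table. The mice were 3 months old, carried the strain label C57BL/6J, and were either wild type or Nox2 knockout. On each of 4 days they received 100 µl intraperitoneally of PBS or of Salmonella abortus equi LPS at 1 µg per g body weight. Each of the 4 groups, wild type PBS, wild type LPS, knockout PBS and knockout LPS, had 6 animals, and 1 library was made from each left hemisphere from 100 ng of total RNA with the QuantSeq kit, which counts tags near the 3′ end of polyadenylated transcripts. Which part of the Nox2 gene is disrupted in the knockout, and in which cells, is not given in the sources used here.

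LPS, the glycolipid of the gram-negative outer membrane, is carried by LBP to CD14 and handed to the receptor complex of TLR4 and MD-2, the product of Ly96. From there the adaptor MyD88 signals towards NF-kappaB and inflammatory cytokines, and the adaptor TRIF, the product of Ticam1, towards interferon genes. TLR2 pairs with TLR1 or TLR6 to sense bacterial lipoproteins, TLR3 and TLR7 sense RNA in endosomes, and IRAK3 (IRAK-M) restrains the kinases downstream of MyD88. In the brain these genes are best known from microglia and from the macrophages and blood leukocytes at its borders, with TLR3 also found in astrocytes.

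The libraries held 2.34e+06 to 5.26e+06 counts, and the 10 genes together received 3700 counts over all 24 libraries, so single values rest on few counts. Levels are given as counts per 1000000 counts of the library (CPM). Of the 10 genes, 6 (Cd14, Tlr2, Tlr3, Myd88, Ticam1 and Irak3) passed the filter on low counts and entered the edgeR fit over 14380 genes. Tlr1, Tlr4, Tlr7 and Ly96 did not, and were tested singly with exact two-sided permutation tests over all splits of 6 libraries against 6, whose smallest possible p is 0.00216. Those p-values, 16 in all, are unadjusted. Cybb, the gene of the NOX2 catalytic subunit, had 38 counts over the wild type group given PBS and 562 over that given LPS, and 1530 and 1610 over the respective knockout groups. It was thus higher in the libraries labelled knockout, a 3′ tag outside a disrupted part does not check the label, and knockout below means labelled so. Wild type LPS replicates 1 and 2 had the lowest Cybb of their group, at 15.6 CPM each against 23.5 to 33.8 CPM in the other 4 libraries, and calls named below that change without them are given with their value. Whether more counts of a gene come from more cells or from more RNA per cell cannot be told apart in a homogenised hemisphere.

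Promoter sequences of Tlr2, Tlr1, Tlr3 and Myd88 are shown first, so that the letters near their starts can be compared. These genes had higher counts after LPS in wild type and a window with a match to a motif described below. RefSeq windows on GRCm38.p6 ran from 250 bases before to 50 bases after an annotated start. Windows matched by symbol were searched for 6 of the 10 genes, with 8 windows in all. Cd14, Tlr4, Tlr7 and Ly96 were not part of this search, and their absence does not show that they have no annotated window. The 4 motifs searched on both strands were the kappaB motif bound by NF-kappaB, the interferon-response motif (GAAA, any 2 bases, GAAA) bound by interferon regulatory factors, TTCNNNGAA bound by STAT factors, and GAGGAAGT bound by the myeloid factor PU.1. Of all 32544 windows of this length, 8.49% held the kappaB motif, 3.45% the interferon-response motif, 8.33% TTCNNNGAA and 3.11% GAGGAAGT. Capitals mark the matches.
Tlr2, chr3:83841559-83841858, minus strand: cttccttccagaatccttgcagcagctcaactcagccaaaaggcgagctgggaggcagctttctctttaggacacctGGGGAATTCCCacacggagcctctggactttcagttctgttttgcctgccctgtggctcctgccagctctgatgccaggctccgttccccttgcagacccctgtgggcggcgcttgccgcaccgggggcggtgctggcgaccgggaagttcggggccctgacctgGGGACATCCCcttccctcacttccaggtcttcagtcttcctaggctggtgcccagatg
Tlr1, chr5:64933509-64933808, minus strand: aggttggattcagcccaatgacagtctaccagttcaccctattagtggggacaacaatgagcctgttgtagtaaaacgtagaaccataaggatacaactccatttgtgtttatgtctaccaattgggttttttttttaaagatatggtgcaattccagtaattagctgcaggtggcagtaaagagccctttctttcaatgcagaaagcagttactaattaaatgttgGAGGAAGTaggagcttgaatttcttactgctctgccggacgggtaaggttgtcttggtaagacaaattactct
Tlr3, chr8:45410331-45410630, minus strand: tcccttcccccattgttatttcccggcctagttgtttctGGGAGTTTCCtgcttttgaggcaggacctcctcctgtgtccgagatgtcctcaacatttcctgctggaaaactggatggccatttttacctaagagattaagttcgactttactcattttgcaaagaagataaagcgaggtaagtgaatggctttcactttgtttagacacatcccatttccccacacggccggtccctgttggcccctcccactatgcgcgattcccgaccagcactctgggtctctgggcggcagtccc
Myd88, chr9:119339969-119340268, minus strand: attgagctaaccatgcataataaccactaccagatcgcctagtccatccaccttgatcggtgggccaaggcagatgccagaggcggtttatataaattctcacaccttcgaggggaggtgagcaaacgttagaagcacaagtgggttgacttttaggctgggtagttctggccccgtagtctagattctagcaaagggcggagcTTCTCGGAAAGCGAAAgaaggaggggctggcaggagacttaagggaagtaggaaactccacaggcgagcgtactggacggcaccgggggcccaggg
The Tlr2 window held 3 kappaB matches, beginning 173, 172 and 8 bases before the start, the first pair of which overlap. The Tlr1 window held GAGGAAGT 23 bases before the start, and its other window, at chr5:64932650-64932949, held TTCNNNGAA 228 bases before another annotated start. The Tlr3 window held a kappaB match 211 bases before the start. In the Myd88 window TTCNNNGAA began 46 and the interferon-response motif 40 bases before the start, and these matches overlap. Both Irak3 windows and the Ticam1 window held no match to the 4 motifs and are not printed. Irak3 also had higher counts after LPS in wild type, so the printed windows do not show how often such genes hold a match. A match is a description of the letters, and binding was not measured here.

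LPS raised the LPS co-receptor gene Cd14, the lipoprotein receptor gene Tlr2, the brake Irak3 and the adaptor Myd88 in the brains of both genotypes. The Myd88 call in knockout (adjusted p = 0.0279, edgeR) ended with DESeq2 (adjusted p = 0.0591) and without some single libraries, as given below. Tlr3 passed the test in wild type only, with no detected difference between genotypes in its LPS change (interaction −0.14 ± 0.21 on the log2 scale, SE; adjusted p = 0.876 with edgeR), and Ticam1 passed in neither. In wild type 5 of the 6 tested genes were called higher and 0 lower, where 10.9% of all tested genes were called higher and 7.12% lower. In knockout the figures were 4 of 6 and 0, against 7.05% and 3.82% of all tested genes. On the log2 scale the median change of the 6 was 1.28 in wild type and 0.92 in knockout, while over all tested genes it lay between −0.01 and 0 in every comparison. Every LPS library lay above every PBS library for 4 of the 6 in wild type (Cd14, Tlr2, Tlr3 and Myd88) and for 2 in knockout (Cd14 and Tlr2), as for 5.99% and 4.19% of all tested genes. The same held for Tlr1 in wild type and for Tlr7 and Ly96 in knockout. Cd14, Tlr2 and Irak3 fell under the filter when only the PBS groups were fitted, so they entered through their LPS libraries. The shares of the 6 called higher or fully separate after LPS, and their median change, are thus partly set by the filter.

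**Figure D1:**
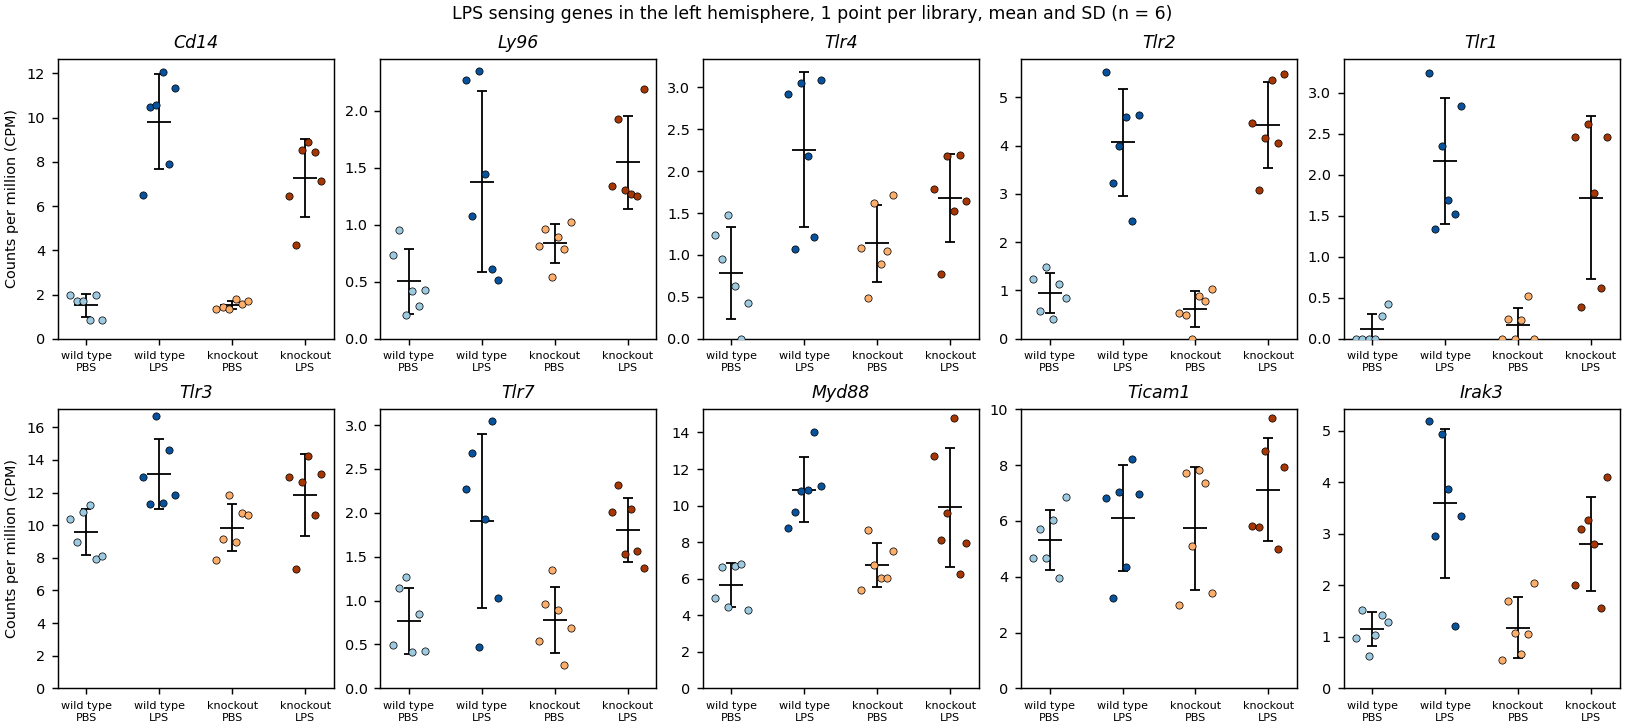
CPM (vertical axis, one scale per gene) of the 10 genes in each of 24 libraries, by genotype and injection (horizontal axis); lines and bars are the mean and SD of 6 libraries. Cd14 and Tlr2 show no overlap between PBS and LPS libraries in either genotype, and no gene separates the genotypes.

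Cd14 encodes the protein that presents LPS to the TLR4 complex. Its counts lay between 0.834 and 1.98 CPM in wild type PBS libraries (median 1.70) and between 6.49 and 12.1 CPM after LPS (median 10.5). In knockout they lay between 1.35 and 1.79 CPM after PBS (median 1.51) and between 4.24 and 8.92 CPM after LPS (median 7.78). Every LPS library was above every PBS library in both genotypes, and the lowest knockout LPS library was replicate 2. The rise was 2.66 ± 0.23 on the log2 scale (SE, n = 6 and 6; adjusted p = 5.72e-13, edgeR) in wild type and 2.24 ± 0.24 (adjusted p = 9.76e-10) in knockout. The gene is at 36725067 to 36726798 on the minus strand of chromosome 18 (GRCm38).

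Tlr4, the signalling receptor for LPS, was measured from few tags, at 0 to 1.48 CPM after PBS (median 0.788) and 1.07 to 3.09 CPM after LPS (median 2.55) in wild type. In knockout the range was 0.482 to 1.71 CPM after PBS (median 1.06) and 0.771 to 2.19 CPM after LPS (median 1.72). The groups overlapped in both genotypes, with 4 of 6 wild type and 3 of 6 knockout LPS libraries above the highest PBS library. The means differed 2.87-fold in wild type (exact permutation p = 0.0152) and 1.48-fold in knockout (exact permutation p = 0.0909). The knockout value passed 0.05 without knockout LPS replicate 2 (difference 0.727 CPM, exact permutation p = 0.026). With genes of at least 1 count in the edgeR fit, the LPS change in knockout minus that in wild type was −0.75 on the log2 scale (adjusted p = 0.883).

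Ly96 encodes MD-2, the part of the complex that holds the lipid of LPS. In wild type it ranged from 0.212 to 0.951 CPM after PBS (median 0.422) and from 0.516 to 2.35 CPM after LPS (median 1.262). In knockout it ranged from 0.538 to 1.03 CPM after PBS (median 0.853) and from 1.25 to 2.19 CPM after LPS (median 1.33). The wild type groups overlapped and the knockout groups did not. The means differed 2.73-fold in wild type (exact permutation p = 0.0303) and 1.85-fold in knockout (exact permutation p = 0.00216). The wild type difference missed 0.05 in 8 of the 12 repeats that left out a single library, with p up to 0.0606, and without wild type LPS replicates 1 and 2 (difference 0.726 CPM, exact permutation p = 0.114). Of the 3 genes of the LPS receptor, Cd14 alone had separate groups in both genotypes.

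Tlr2 senses bacterial lipoproteins together with TLR1 or TLR6. Wild type PBS libraries had 0.417 to 1.48 CPM (median 0.994) and wild type LPS libraries 2.44 to 5.52 CPM (median 4.29). Knockout PBS libraries had 0 to 1.03 CPM (median 0.664) and knockout LPS libraries 3.08 to 5.48 CPM (median 4.31). No LPS library overlapped the PBS libraries of its genotype. Tlr2 rose by 2.08 ± 0.31 on the log2 scale in wild type (adjusted p = 1.2e-06, edgeR) and by 2.80 ± 0.34 in knockout (adjusted p = 1.87e-08), the largest change of the 6 tested genes in knockout. The difference between these changes was 0.72 ± 0.52 (95% interval −0.36 to 1.79, adjusted p = 0.688 in edgeR).

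Tlr1, its partner, was almost undetected after PBS. The wild type group had 2 counts in all after PBS and 48 after LPS, a ratio of 26.5 after scaling by the library totals (95% counting interval 6.95 to 225). The knockout group had 4 and 42 counts, a ratio of 10.7 (3.87 to 40.9). Counting intervals cover counting error only. All 6 wild type LPS libraries, at 1.34 to 3.25 CPM, were above all PBS libraries, while in knockout 5 of 6 were, at a group range of 0.385 to 2.62 CPM. The exact permutation p was 0.00216 in wild type, the smallest the test can give, and 0.00433 in knockout.

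Tlr3 detects double-stranded RNA. Its counts were 7.94 to 11.3 CPM after PBS (median 9.65) and 11.3 to 16.7 CPM after LPS (median 12.4) in wild type. In knockout they were 7.84 to 11.8 CPM (median 9.89) and 7.32 to 14.3 CPM (median 12.8). The wild type groups met without overlapping, and knockout LPS replicate 2 lay below all knockout PBS libraries. Tlr3 rose by 0.43 ± 0.14 on the log2 scale in wild type (adjusted p = 0.0297, edgeR), and its change in knockout was 0.29 ± 0.15 (adjusted p = 0.238). The wild type call ended with DESeq2 (adjusted p = 0.0608), with the filter of at least 1 count (adjusted p = 0.075 in edgeR), and without any one of wild type PBS replicates 2, 5 and 6 or wild type LPS replicates 3 and 5 (adjusted p up to 0.113).

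Tlr7 detects single-stranded RNA. In wild type its counts ranged from 0.417 to 1.27 CPM after PBS (median 0.672) and from 0.470 to 3.05 CPM after LPS (median 2.10). In knockout they ranged from 0.262 to 1.35 CPM after PBS (median 0.790) and from 1.37 to 2.31 CPM after LPS (median 1.79). The knockout groups did not overlap, and the wild type groups did. The means differed 2.49-fold in wild type (exact permutation p = 0.0368) and 2.31-fold in knockout (exact permutation p = 0.00216). The wild type difference missed 0.05 without wild type LPS replicates 1 and 2 (0.854 CPM, exact permutation p = 0.162) and in 8 of the 12 repeats that left out 1 library.

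Myd88, the adaptor of every Toll-like receptor here except TLR3, lay between 4.27 and 6.80 CPM after PBS (median 5.80) and between 8.76 and 14.02 CPM after LPS (median 10.8) in wild type. The knockout values were 5.41 to 8.68 CPM (median 6.39) and 6.25 to 14.8 CPM (median 8.85). In wild type every LPS library was above every PBS library, and in knockout 3 of 6 were. Myd88 rose by 0.92 ± 0.18 on the log2 scale in wild type (adjusted p = 0.000169, edgeR) and by 0.58 ± 0.18 in knockout (adjusted p = 0.0279). The knockout call ended with DESeq2 (adjusted p = 0.0591) and without any one of knockout PBS replicates 1, 4 and 5 or knockout LPS replicates 1 and 4 (adjusted p in edgeR up to 0.156). Myd88 overlaps Acaa1a on the opposite strand, so without a stated strand setting their tags cannot be told apart where they overlap, 3742 bases from the 3′ end of Myd88. All of Myd88, its 3′ end included, also lies within the annotated span of Slc22a14 on the same strand, which had 1 count over all libraries.

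Ticam1, the gene of TRIF, was 3.97 to 6.84 CPM after PBS (median 5.20) and 3.22 to 8.23 CPM after LPS (median 6.89) in wild type. The knockout ranges were 2.97 to 7.83 CPM (median 6.23) and 5.001 to 9.68 CPM (median 6.88). The groups overlapped in both genotypes. Its log2 fold change was 0.20 ± 0.23 in wild type (95% interval −0.28 to 0.67, adjusted p = 0.628 in edgeR) and 0.29 ± 0.22 in knockout (−0.17 to 0.75, adjusted p = 0.496).

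Irak3, the kinase-like brake on this pathway, ranged from 0.635 to 1.52 CPM after PBS (median 1.16) and from 1.22 to 5.19 CPM after LPS (median 3.61) in wild type. The knockout ranges were 0.541 to 2.05 CPM (median 1.06) and 1.56 to 4.11 CPM (median 2.94). The groups overlapped, with 5 of 6 wild type and 4 of 6 knockout LPS libraries above the highest PBS library. Irak3 rose by 1.64 ± 0.32 on the log2 scale in wild type (adjusted p = 0.000148, edgeR) and by 1.27 ± 0.35 in knockout (adjusted p = 0.0094). It overlaps Tmbim4 on the opposite strand, 59942 bases from its own 3′ end.

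**Figure D2:**
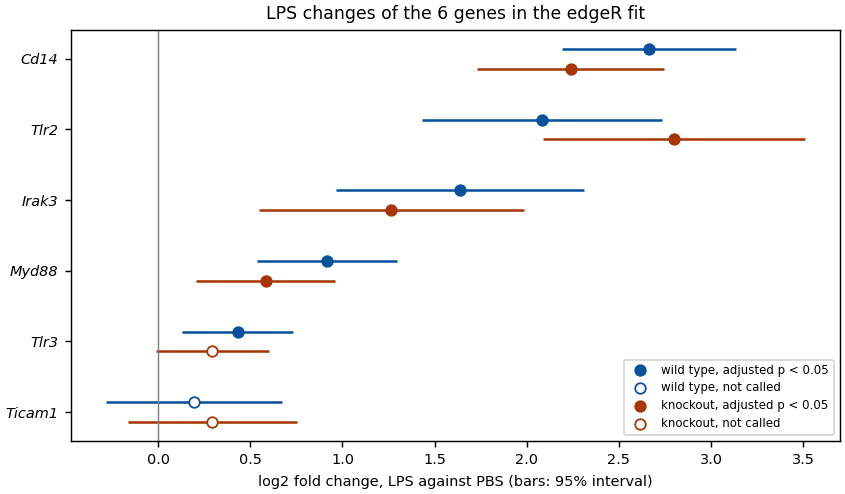
Log2 fold change of LPS against PBS (horizontal axis) for the 6 genes in the edgeR fit, by genotype; bars are 95% intervals and filled points passed an adjusted p of 0.05. Cd14, Tlr2, Irak3 and Myd88 are filled in both genotypes, Tlr3 only in wild type, and Ticam1 in neither.

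Whether Nox2 genotype shifted these genes was read by setting knockout beside wild type under PBS, under LPS, and in the interaction. None of the 6 tested genes was called in any of these 3 comparisons with edgeR or DESeq2. Of all tested genes 0.0417% were called higher and 0.0904% lower in knockout after PBS (0.132% in all), 0.264% and 0.786% after LPS (1.05%), and 0% and 0.00695% in the interaction. No gene of the 10 had separate genotypes in CPM, where 0.431% of all tested genes did after PBS and 0.668% after LPS. The lowest p of the 6 was that of Cd14 after LPS, where knockout was lower by a log2 difference of −0.43 ± 0.17 (adjusted p = 0.287, edgeR). In the libraries, 2 of 6 knockout LPS values lay below the lowest wild type LPS library, and the value without wild type LPS replicates 1 and 2 was −0.51 (adjusted p = 0.117). It was the only one of the 6 with an unadjusted p under 0.05 in any of these 3 comparisons in edgeR, and DESeq2 likewise gave 1 after LPS and 0 in the other comparisons.

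The other 5 tested genes had log2 differences between genotypes after LPS of −0.37 for Irak3, −0.13 for Tlr3, −0.11 for Myd88, 0.13 for Tlr2 and 0.25 for Ticam1 (adjusted p 0.666 to 0.894 in edgeR). After PBS Tlr2 was at −0.58 ± 0.46 (adjusted p = 0.774 in edgeR). The interactions were −0.42 ± 0.37 for Cd14, −0.33 ± 0.26 for Myd88, −0.37 ± 0.50 for Irak3 and 0.10 ± 0.32 for Ticam1 (adjusted p 0.715 to 0.956 in edgeR). Of the genes outside the fit, Ly96 was at 0.837 CPM ± 0.172 in knockout and 0.505 CPM ± 0.284 in wild type after PBS (SD, n = 6; exact permutation p = 0.0368). This Ly96 difference missed 0.05 in 8 of the 12 repeats that left out a library, with an exact permutation p up to 0.0736. The remaining 7 exact permutation tests between genotypes gave p from 0.219 to 0.937. The libraries also differed by genotype in the summed level of the olfactory neuron markers Omp and S100a5, with medians of 19.7 CPM after PBS and 13.7 CPM after LPS in wild type, against 1.13 and 0.587 CPM in knockout. After LPS, 4 of 10 endothelial markers and 2 of 12 microglia markers were called lower in knockout than in wild type and 0 higher, with median log2 differences of −0.34 and −0.20. The part of these markers in the genotype values was not tested.

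Markers of several cell types moved with LPS beside these genes, and their part in the changes was not tested. The summed level of 12 microglia markers was 250 to 298 CPM in wild type PBS and 473 to 616 CPM in wild type LPS libraries, and 250 to 279 and 401 to 539 CPM in knockout. Of these 12 markers, 9 were called higher and 1 lower in wild type, and 8 higher and 0 lower in knockout. Neutrophil markers summed to 9.86 to 21.4 CPM after PBS and 198 to 814 CPM after LPS in wild type, and to 9.19 to 43.1 and 122 to 451 CPM in knockout, with 8 of 8 tested markers called higher in each genotype and Cxcr2 at 0 in wild type PBS. Monocyte markers summed to 20.7 to 26.1, 46.1 to 84.8, 19.4 to 24.6 and 38.4 to 54.8 CPM in the same order, with 4 of 5 tested markers called higher in each genotype and Ly6i at 0 in both PBS groups. Border macrophage markers summed to 20.4 to 28.1, 70.7 to 100, 17.5 to 22.5 and 57.4 to 76.7 CPM, with 6 of 7 tested called higher in wild type and 7 of 7 in knockout. All 10 endothelial markers were called higher in wild type and 9 in knockout. Other markers were lower after LPS: the 4 tested erythrocyte markers were called lower in each genotype, with summed medians of 64.1 CPM after PBS and 3.05 CPM after LPS in wild type and 62.4 and 9.19 CPM in knockout. Of 9 neuron markers, 5 were called lower in wild type and 2 in knockout, with 0 higher. Of 8 astrocyte markers, 5 were called higher and 1 lower in wild type, and 4 higher and 0 lower in knockout. Of 7 oligodendrocyte markers, 2 were called higher and 3 lower in each genotype. The 1 tested lymphocyte marker was called higher in each. Of all tested genes, 10.9% were called higher and 7.12% lower in wild type, and 7.05% and 3.82% in knockout.

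Set against the microglia markers instead of all counts, a scale chosen after seeing the data, Cd14, Tlr1 and Tlr2 were still higher after LPS and Tlr3 was lower. Per 1000 microglia marker counts, Cd14 was 3.32-fold higher after LPS in wild type and 2.68-fold in knockout (exact permutation p = 0.00216 in each). Tlr2 was 2.22-fold higher in wild type (exact permutation p = 0.00433) and 4.08-fold in knockout (exact permutation p = 0.00216). Tlr1 was 8.83-fold higher in wild type (exact permutation p = 0.00216) and 6.26-fold in knockout (exact permutation p = 0.0108). The ratio for Tlr3 was below 1, at 0.697 in wild type and 0.683 in knockout (exact permutation p = 0.00216 in each), and that for Ticam1 was 0.575 in wild type (exact permutation p = 0.00216) and 0.718 in knockout (exact permutation p = 0.121). For Myd88 the ratio was 0.970 in wild type and 0.846 in knockout (exact permutation p = 0.758 and 0.279), and for Irak3 1.58 and 1.37 (exact permutation p = 0.0931 and 0.208). For Tlr4 it was 1.49 and 0.832 (exact permutation p = 0.210 and 0.424). For Tlr7 it was 1.30 and 1.33 (exact permutation p = 0.394 and 0.216), and for Ly96 1.41 and 1.07 (exact permutation p = 0.344 and 0.673). Tlr4 in wild type, and Tlr7 and Ly96 in both genotypes, thus passed 0.05 in CPM but not on this scale. Between genotypes, Ly96 after PBS was 1.71-fold higher in knockout on this scale (exact permutation p = 0.026). The other genotype comparisons on it gave exact permutation p from 0.0931 to 0.864. The exact permutation p-values on this scale are unadjusted as well. A ratio to markers that themselves changed shows unequal change only.

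**Figure D3:**
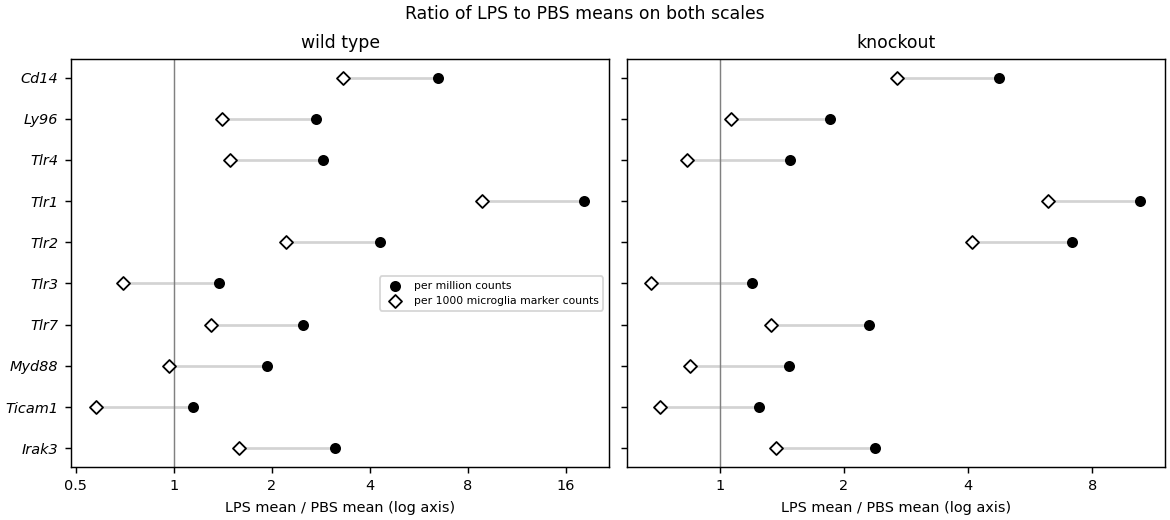
Ratio of the LPS mean to the PBS mean (horizontal log axis) for the 10 genes in wild type and knockout, in CPM (filled circles) and per 1000 counts of 12 microglia markers (open diamonds). On both scales Cd14, Ly96, Tlr1, Tlr2, Tlr7 and Irak3 lie above 1 in both genotypes, while Tlr3, Myd88 and Ticam1 lie below 1 on the microglia scale in both, and Tlr4 in knockout.

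Of the other genes of the pathway, 68 were listed by role and 48 were tested. In wild type 22 were called higher and 2 lower, and their median change was 0.16 on the log2 scale. In knockout 20 were called higher and 0 lower, at a median of 0.15. Of all tested genes, 10.9% were called higher and 7.12% lower in wild type, and 7.05% and 3.82% in knockout. The medians over all tested genes were −0.0088 and −0.0015. These shares also stand beside the role lists below. The lists were chosen with earlier results of these data known, and a gene could pass the filter through its LPS libraries alone. The shares of listed genes called higher may thus be partly set by the choice and the filter. Of the 7 remaining receptors, all but Tlr13 lay under the filter on low counts. Tlr9 and Tlr11 had 0 counts in every library, which allows up to 0.121 to 0.134 CPM per group, and Tlr8 had 1 count. Tlr13, the receptor for bacterial ribosomal RNA and the only one of 7 tested, rose by 2.18 ± 0.31 on the log2 scale in wild type (adjusted p = 2.84e-07, edgeR) and by 2.75 ± 0.36 in knockout.

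Among 8 tested accessory proteins, 5 were called higher in each genotype, and 1, the receptor chaperone gene Hsp90b1, lower in wild type (−0.16 ± 0.05), a call that ended without wild type LPS replicate 5. In knockout Hsp90b1 had nearly the same change, −0.15 ± 0.05 (adjusted p = 0.0506, edgeR), and was called lower there without wild type LPS replicates 1 and 2 (adjusted p = 0.0405). Itgam, a subunit of the complement receptor CR3, rose by 2.62 ± 0.15 on the log2 scale in wild type and 2.47 ± 0.17 in knockout. Ly86, whose product MD-1 partners the TLR4 relative CD180, rose by 2.06 ± 0.20 and 1.69 ± 0.20. Unc93b1, which escorts the nucleic acid receptors to endosomes, rose by 1.58 ± 0.13 and 1.59 ± 0.14. These changes in Itgam, Ly86 and Unc93b1 passed the edgeR test in both genotypes.

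Among 27 tested adaptors and kinases, 11 were called higher and 1 lower (Chuk, an inhibitor-of-kappaB kinase, −0.26) in wild type, and 10 higher and 0 lower in knockout. The Chuk call ended with DESeq2, with only the groups compared, and without any one of wild type PBS replicates 2, 3, 4 and 6, wild type LPS replicates 2, 3, 4 and 5, or knockout LPS replicate 5. Pik3ap1, an adaptor that joins the receptors to PI3-kinase, rose by 2.76 ± 0.26 on the log2 scale in wild type and 2.42 ± 0.27 in knockout. Lyn, a Src-family kinase gene, rose by 1.24 ± 0.14 and 0.82 ± 0.15. Of 12 tested brakes, 5 were called higher in wild type and 4 in knockout, with 0 lower in each. Socs3, an inhibitor of cytokine signalling, rose by 2.56 ± 0.30 and 1.66 ± 0.32, and Nfkbia, which holds NF-kappaB in the cytoplasm, by 0.34 ± 0.06 and 0.44 ± 0.06. Tnip1, a partner of the ubiquitin editor A20, rose by 0.39 ± 0.09 in wild type and had 0.16 ± 0.09 in knockout (adjusted p = 0.344, edgeR).

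**Figure D4:**
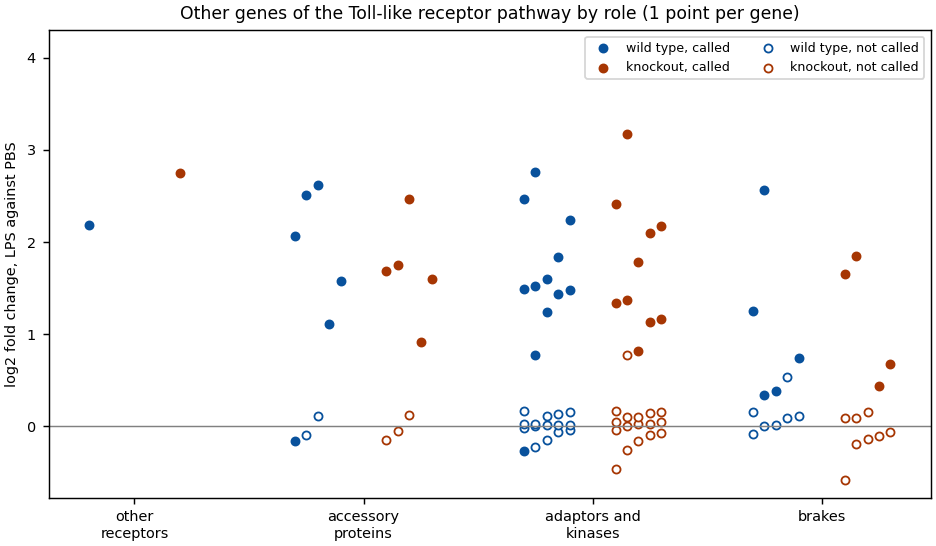
Log2 fold change of LPS against PBS (vertical axis) for each tested gene of the pathway other than the 10, by role (horizontal axis) and genotype, 1 point per gene; filled points passed an adjusted p of 0.05 in edgeR. Most filled points in every role lie above 0, beside many open points near 0.

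Between the genotypes, 2 of these 48 genes were called, 1 of them after PBS and 2 after LPS. Of all tested genes, 0.132% were called after PBS and 1.05% after LPS. Wdfy1 encodes a protein known to recruit TRIF to TLR3 and TLR4. Its gene overlaps Mrpl44 on the opposite strand, 73756 bases from its own 3′ end. Its level was 58.0 CPM ± 2.58 in wild type PBS and 58.8 ± 2.72 in wild type LPS libraries, against 17.0 ± 2.17 and 17.5 ± 2.53 in knockout (SD, n = 6), with no overlap. The log2 difference of knockout from wild type was −1.78 ± 0.08 after PBS and −1.76 ± 0.08 after LPS (adjusted p = 1.04e-20 and 3.34e-20, edgeR), and LPS left Wdfy1 at 0.02 ± 0.07 in wild type (adjusted p = 0.921). Lyn was lower in knockout after LPS by −0.50 ± 0.13 (adjusted p = 0.0393, edgeR). The Lyn call ended with DESeq2 (adjusted p = 0.0646), with only the groups compared in the fit (adjusted p = 0.0779) and without any one of wild type LPS replicates 3, 4 and 6 or knockout LPS replicates 2, 3, 5 and 6 (adjusted p up to 0.161 in edgeR). Without wild type LPS replicates 1 and 2, the brakes Socs3 (−0.89, adjusted p = 0.0299) and Tnip1 (−0.34, adjusted p = 0.0311) were also called lower in knockout after LPS with edgeR. So were the integrin gene Itgb2 (−0.85, adjusted p = 0.0157, edgeR) and the interferon regulatory factor gene Irf5 (−0.65, adjusted p = 0.0401), and Chuk was called in the interaction (0.50, adjusted p = 0.045). With all libraries the adjusted p was 0.146 for Socs3, 0.148 for Tnip1, 0.127 for Itgb2, 0.441 for Irf5 and 0.293 for the Chuk interaction. Without wild type LPS replicate 2 alone it was 0.0467 for Socs3 and for Tnip1.

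**Figure D5:**
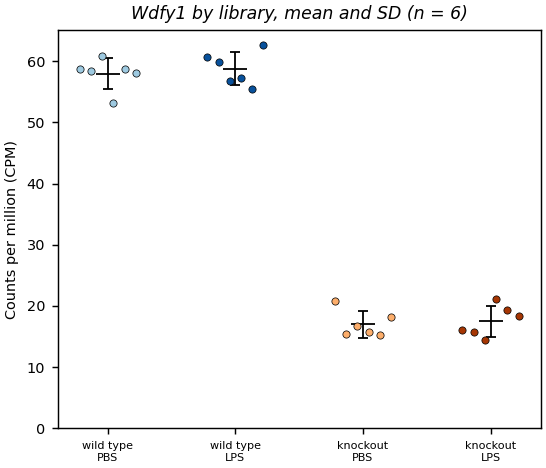
CPM of Wdfy1 (vertical axis) in each library by genotype and injection (horizontal axis), with the mean and SD of 6 libraries. The 12 knockout libraries lie far below the 12 wild type libraries, whichever injection was given.

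The genes whose 4 group means moved most like those of 3 of the receptor genes were found by the root mean square difference of centred mean log2 CPM. Nearest to Tlr2 were Ikbke (0.087), Ctss (0.091) and Apobec3 (0.101), where the median over all genes compared was 0.974. Nearest to Cd14 were Gfap (0.052), Ifi30 (0.053) and Fcgr3 (0.056), against a median of 1.08. Nearest to Tlr4 were Mcm3 (0.034), Samd9l (0.055) and Bcam (0.056), against a median of 0.439, on a gene with few tags. The measure compares 4 means and carries no test.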

How the data were processed

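The authors deposited whole-number counts per gene, not normalised, for 24 left-hemisphere libraries made with 3′ tag sequencing. The submitters' processing notes name the build mm10 (GRCm38) and, without roles, STAR 2.7.3a, bcl2fastq, Subread 2.0.0 with featureCounts, DESeq2 1.26.0 and R 3.6.1. What they used as annotation release and strand setting, and for multiple matches and duplicates, is not given in the sources used here. Positions are from GENCODE M21.

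From these counts, edgeR 4.0.16 under R 4.3.3 fitted 4 group means to all 24 libraries (TMM scaling, quasi-likelihood F test). Of all genes, 14380 passed filterByExpr at a minimum count of 10. The Benjamini-Hochberg adjustment ran over all of these, and a gene was called under 0.05. Errors are standard errors unless marked SD, taken as the size of the log2 fold change over the square root of F. The 95% intervals use these errors and 20 residual degrees of freedom, so both are approximate. Genes under the filter were tested singly with exact permutation tests (scipy 1.17.1), given unadjusted although the plan was to adjust them. The same test, also unadjusted, was run for all members on the microglia marker scale. DESeq2 1.42.0, other filters and scalings, left-out libraries and a replicate block were alternatives. The fit was tested on simulated data. The members and gene lists were chosen with earlier results of these data known. Named were all members, Cybb, the 3 genes of each role list with the smallest p for LPS in wild type, list genes called between genotypes, and the 3 genes most like Tlr2, Tlr4 and Cd14. A result that this rule takes is not reported here. Other genes named were chosen after their values were seen. The replicate is the animal, as the design text gives 6 animals per group.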

Additional observations from a re-analysis of the deposited data

Results flagged for a closer look

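Cybb, the gene of the NOX2 catalytic subunit, changed differently with LPS in the 2 genotypes. Its LPS change in knockout minus that in wild type was −3.90 on the log2 scale, the only interaction called among 14380 genes with edgeR. Over the group it had 38 counts after PBS and 562 after LPS in wild type, and 1530 and 1610 in knockout. None of the 40 groups of 6 libraries checked for the 10 sensing genes held a library that stood apart from the rest.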

How the results depend on the processing

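Of 308 recomputed counts of called sensing genes, 293 equalled the reported count and 15 differed, 8 of them for LPS in wild type and 7 for LPS in knockout. In wild type, DESeq2 called 6 (Tlr1 and Tlr4 added, Tlr3 lost), genes of at least 1 count gave 6, and the fit with only the groups compared gave 3, because Tlr2 and Irak3 fell under its filter. In knockout, DESeq2 called 4 (Tlr1 added, Myd88 lost), genes of at least 1 count gave 5, and only the groups compared gave 3. Of 912 recomputed log2 fold changes of these genes, 899 kept their side of the threshold, as did 189 of 216 values of genes under the filter. Values that changed direction without passing the threshold in either fit or test were counted among those kept. Of 308 counts over all genes, 251 stayed within 1.5 times the reported count. Leaving out 1 library gave 4 to 5 calls in wild type and 3 to 4 in knockout.

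Among the other pathway genes, accessory genes called higher in wild type went from 5 to 9 with DESeq2 and with genes of at least 1 count, where more of them were tested. Receptors called higher in wild type went from 1 to 2 with the same settings. With only the groups compared, adaptors and kinases went from 11 to 7 in wild type and brakes from 4 to 2 in knockout. In knockout 1 accessory gene was called lower after LPS, against 0, with DESeq2, with DESeq2 size factors, with a mean of at least 2 CPM, with only the groups compared and with the replicate block.

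Between genotypes, counts over all genes moved most. Called higher and lower were 6 and 13 genes after PBS, 38 and 113 after LPS, and 0 and 1 in the interaction. With genes of at least 1 count these became 43 and 45, 97 and 196, and 28 and 39. Without wild type LPS replicates 1 and 2 together they became 15 and 21, 177 and 384, and 84 and 165. With only the groups compared, 16 were called higher after PBS, and DESeq2 called 11 lower in the interaction. Leaving out 1 library gave 6 to 15 higher and 7 to 20 lower after PBS, 19 to 74 and 53 to 215 after LPS, and 0 to 5 and 1 to 15 in the interaction.

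Same-numbered libraries were at most weakly alike: their deviations correlated at −0.077 to 0.165, and 2 to 3 of 6 libraries correlated best with their own number. In every pair of groups their mean correlation was above that of differently numbered libraries (0.0093 to 0.047 against −0.0094 to −0.0017). Whether the numbers mark a shared step was not tested. With the replicate block, 22 genes were called higher after PBS, 71 higher and 202 lower after LPS, and 3 higher and 5 lower in the interaction, and Socs3 was called lower in knockout after LPS (−0.77, adjusted p = 0.0431, edgeR). It changed no call of the 6 sensing genes in the fit, and the other 4 were not run with it.

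For genes under the filter, leaving out 1 library moved the difference in mean CPM over 0.414 to 0.727 for Tlr4 in knockout, 0.912 to 1.43 for Tlr7 in wild type, 0.679 to 1.05 for Ly96 in wild type, and 0.273 to 0.421 for Ly96 between genotypes after PBS. Without wild type LPS replicates 1 and 2, chosen after seeing the data, Tlr7 was at 0.854 and Ly96 at 0.726 CPM in wild type. The cause of these shifts was not tested. Depth limits all of these genes, since 1 CPM is at most 5.26 counts.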

Other observations

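Several accessory genes of LPS handling lay under the filter and were picked after their values were seen, so they are given as counts over the 6 libraries of a group with no test. Aoah, whose product deacylates LPS, had 4 counts after PBS and 60 after LPS in wild type, and 1 and 50 in knockout. Casp4, which encodes the mouse caspase that binds LPS inside cells, had 9, 62, 10 and 56 counts in the same order. Trem1, an amplifier of myeloid inflammation, had 0, 24, 1 and 11 counts, and Acod1, the enzyme gene for itaconate, 0, 21, 2 and 14 counts. Ticam2, the gene of the TRAM adaptor that links TLR4 to TRIF, had 9, 42, 8 and 33 counts. Other listed genes under the filter are not given here, and not all had more counts after LPS. The brake gene Il1rl1 had 7 counts after PBS and 1 after LPS in wild type. Lbp, which carries LPS to CD14 and did enter the fit, rose by 1.11 ± 0.16 on the log2 scale in wild type (adjusted p = 4.04e-07, edgeR) and by 0.92 ± 0.16 in knockout (adjusted p = 4.07e-05).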
